A study of Mus musculus with 15 samples.

Results

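The genes followed here belong to neutrophil antimicrobial defence and were counted in mouse spleen after radiation, after radiation with a burn, and after treatment of either injury with extracellular vesicles. They were chosen by symbol, namely Camp, Ltf, Ctsg, S100a8, S100a9 and Cxcr2, and made up 6 of the 561 genes counted. A filter of a mean of at least 20 counts kept 4 of the 6, whereas Ltf with a mean of 12.6 counts and Ctsg with a mean of 7.53 counts fell under it. The Camp transcript had between 239 and 1648 raw counts in the Sham samples and between 2 and 11 after either injury without vesicles, and S100a8, S100a9 and Cxcr2 fell several-fold. The fall of Cxcr2 after radiation alone overlapped Sham and lost its call in many alternative settings. Vesicle treatment changed none of the 4 tested genes past the threshold.

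Neutrophils carry their antimicrobial proteins in granules that are filled while the cells mature. Camp encodes cathelicidin, an antimicrobial peptide of the specific granules, and Ltf encodes lactoferrin, an iron-binding protein of the same granules. Ctsg encodes cathepsin G, a serine protease of the azurophil granules, which form earlier in maturation. S100a8 and S100a9 encode the subunits of calprotectin, the metal-binding protein that is abundant in the neutrophil cytosol, and Cxcr2 encodes the receptor that draws mature neutrophils from the bone marrow towards chemokines. Granule proteins are transcribed mostly in precursors, while S100a8, S100a9 and Cxcr2 transcripts persist in mature neutrophils. The red pulp of the mouse spleen holds neutrophils and can host their production.

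All groups were female C57BL/6J mice aged 6 to 8 weeks, with 3 samples in each of 5 groups. The WBIR mice were exposed over the whole body to 9 Gy from a caesium irradiator, while RCI mice (radiation combined injury) received a full-thickness contact burn of 20% of the body surface under anaesthesia and morphine and then the same exposure, and Sham mice went through the procedure without burn or radiation. The WBIR+MSC-EVs and RCI+MSC-EVs mice were injected intravenously 72 h after injury with vesicles released by cultured C57BL/6J bone marrow mesenchymal stem cells, and spleens were taken 48 h later. The labels name PBS for the untreated RCI mice alone, although the study's text gives saline to all untreated mice. Whether the 3 replicates of a group were separate mice was not settled by the sources, so p-values measure only the spread between these samples.

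Transcripts were counted with the nCounter Mouse Immunology Panel, which counts coloured probe barcodes without amplification. Total counts ran from 90127 to 598872 per sample, with the lowest in WBIR+MSC-EVs replicate 1, and scaled counts are raw counts divided by each sample's relative reference level, the geometric mean of 14 reference genes. That level differed 5.35-fold between samples, and 7 of the 14 reference genes differed over 2-fold between WBIR and Sham on log2 scales running from -1.70 to 2.83. The Sham samples carried spleen markers, with 9 B cell genes summing to between 18395 and 20592 scaled counts. In these bulk samples a loss of neutrophils and a loss of RNA per neutrophil cannot be told apart.

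The upstream sequences of the 3 genes with the largest called falls are shown here, since S100a8 and S100a9 moved almost as a pair and Camp did not follow them. Each run is the 250 bases before the annotated start in RefSeq (mouse build GRCm38.p6), read 5′ to 3′ on the gene's own strand. The Camp run lies at chr9:109849457-109849706 on the minus strand, the S100a8 run at chr3:90668821-90669070 on the plus strand and the S100a9 run at chr3:90695722-90695971 on the minus strand. Capitals mark matches on either strand to the TATA box pattern TATAAA or to the CCAAT box. AGGAAG, as a pattern of PU.1 and other ETS factor sites, was also marked on either strand. TTGCNNAA, as a pattern of C/EBP family sites, was searched only on the strand shown.
Camp: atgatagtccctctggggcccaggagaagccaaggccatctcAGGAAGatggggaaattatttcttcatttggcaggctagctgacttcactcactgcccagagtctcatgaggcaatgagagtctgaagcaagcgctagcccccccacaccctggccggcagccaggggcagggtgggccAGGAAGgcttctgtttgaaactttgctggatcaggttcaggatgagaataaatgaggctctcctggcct
S100a8: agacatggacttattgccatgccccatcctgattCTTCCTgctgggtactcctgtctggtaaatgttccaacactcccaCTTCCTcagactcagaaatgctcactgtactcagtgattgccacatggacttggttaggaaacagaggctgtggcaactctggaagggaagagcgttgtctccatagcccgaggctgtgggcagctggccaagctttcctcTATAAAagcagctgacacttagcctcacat
S100a9: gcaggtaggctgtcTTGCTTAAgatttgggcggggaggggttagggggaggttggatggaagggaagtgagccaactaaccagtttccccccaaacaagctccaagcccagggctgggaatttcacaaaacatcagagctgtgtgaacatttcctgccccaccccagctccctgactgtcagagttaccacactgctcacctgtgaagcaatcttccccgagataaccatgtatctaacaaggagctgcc
All 6 genes were matched to RefSeq. The S100a8 run holds TATAAA with its first base 30 bases before the start, and AGGAAG on the opposite strand at 216 and 171 bases before it. The Camp run holds AGGAAG at 208 and 69 bases before the start. The S100a9 run holds a TTGCNNAA match at 236 bases before the start and none of the other patterns. Of 32851 RefSeq promoters of the same length, 12.4% hold TATAAA, 33.8% CCAAT and 29.5% AGGAAG on either strand. TTGCNNAA, searched on the gene's own strand alone, was held by 5.14%. S100a8 and S100a9 are neighbours on chromosome 3, 22.6 kb apart, and Camp and Ltf lie 1.17 Mb apart on chromosome 9, whereas Ctsg is on chromosome 14 and Cxcr2 on chromosome 1.

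Camp showed the deepest loss. The raw Camp counts were 461, 239 and 1648 in the Sham samples, 4, 3 and 2 in WBIR, and 7, 9 and 11 in RCI. They were 2, 7 and 39 in WBIR+MSC-EVs and 12, 10 and 92 in RCI+MSC-EVs. Every injured sample therefore lay below every Sham sample, and the third replicate of each vesicle-treated group stood above its 2 companions. The share of all tested genes that separate from Sham in this way was not counted, so the separation is a description. The Camp means without vesicles were 818 ± 508 scaled counts in Sham, 8.59 ± 2.82 in RCI and 3.61 ± 1.92 in WBIR (SD, n = 3 each). With vesicles they were 43.7 ± 55.3 after RCI and 11.4 ± 10.5 after WBIR.

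Against Sham, Camp had a log2 fold change of -7.85 ± 1.05 (SE) in WBIR (edgeR adjusted p = 1.9e-05) and of -6.60 ± 0.95 in RCI (edgeR adjusted p = 3.4e-05). It had the lowest log2 fold change of all 426 tested genes in both comparisons. Camp passed the filter on mean counts only through its Sham samples, so its rank among the genes kept is a description. In the vesicle-treated groups, the log2 fold change of Camp against Sham was -6.01 ± 0.92 after WBIR (edgeR adjusted p = 6.1e-05), again the lowest of 426, and -4.23 ± 0.82 after RCI (edgeR adjusted p = 0.000441), the seventh lowest. Without RCI+MSC-EVs replicate 3 the latter value was -6.10, and without WBIR+MSC-EVs replicate 3 the former was -7.37. Without Sham replicate 3, the highest Sham sample, the values were -7.22 in WBIR, -5.97 in RCI, -5.38 in WBIR+MSC-EVs and -3.60 in RCI+MSC-EVs, all called.

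Because a few counts carry the low end, the fold change was also taken from the summed counts. The Sham sum of 2348 Camp counts stood against 9 in WBIR, a 264-fold difference after scaling (95% exact interval 139 to 578), and against 27 in RCI, a 109-fold difference (74.9 to 166). It stood against 48 in WBIR+MSC-EVs, a 66.0-fold difference (49.7 to 89.8), and against 114 in RCI+MSC-EVs, a 21.2-fold difference (17.5 to 25.8). These intervals cover counting error only and not the spread between replicates. With every count under 20 raised to 20, a background threshold of the kind nSolver offers, the log2 fold change of Camp was -5.16 in WBIR and -5.41 in RCI and stayed called, so the size of the fall rests on how far such low counts are trusted.

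**Figure D1:**
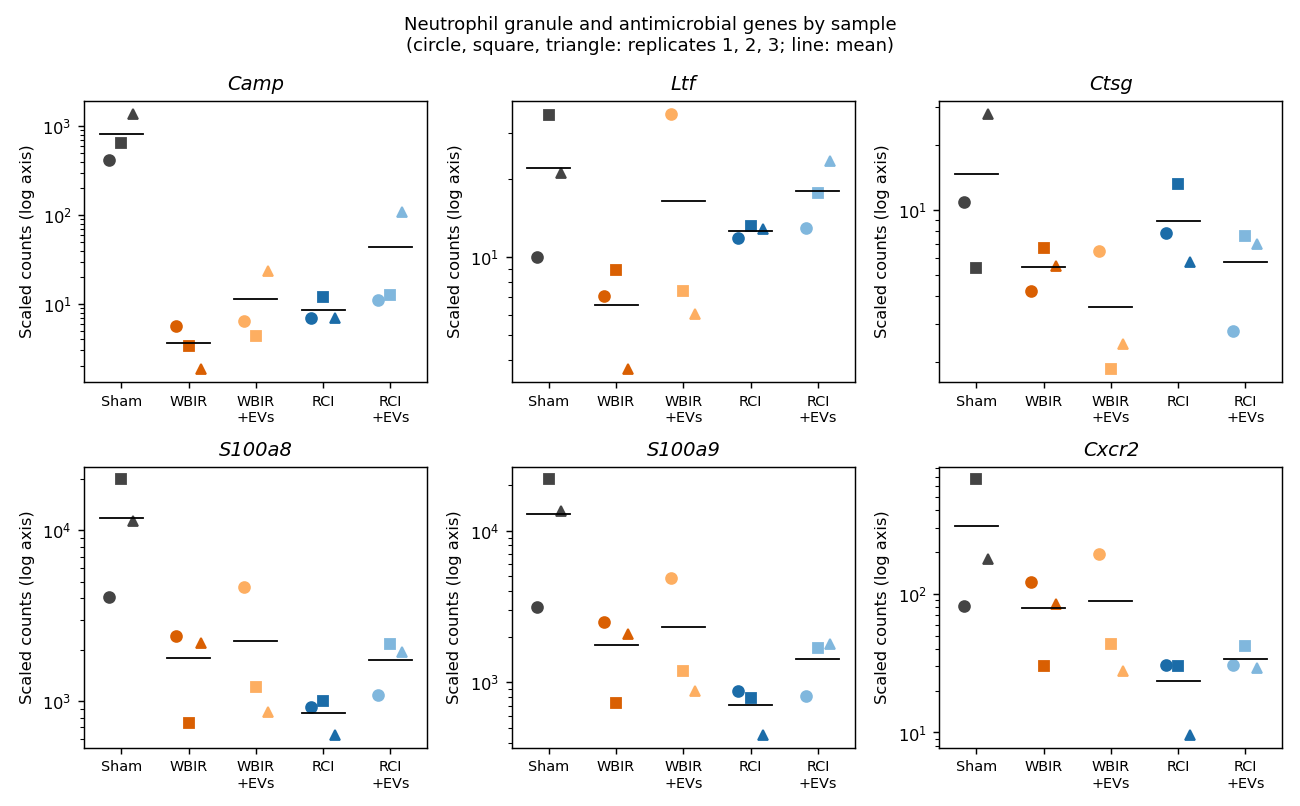
Scaled counts of the 6 genes in each of the 15 samples (log axis, a different range in each panel), with a circle, square and triangle for replicates 1, 2 and 3 and a line at the group mean. The Sham samples of Camp, between 419 and 1390, stand apart from all injured samples, whereas for Cxcr2 the lowest Sham sample, at 81.0, lies below 2 of the 3 WBIR samples.

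The calprotectin subunits fell less. The raw S100a8 counts were 4452, 7391 and 13498 in Sham, 1705, 664 and 2379 in WBIR, and 934, 765 and 989 in RCI. They were 1448, 1951 and 1427 in WBIR+MSC-EVs and 1172, 1720 and 1656 in RCI+MSC-EVs. On the scaled values all samples of WBIR, RCI and RCI+MSC-EVs lay below all Sham samples, whereas WBIR+MSC-EVs replicate 1, at 4681 scaled counts, lay above the lowest Sham sample at 4050. As for Camp, the share of all tested genes that separate was not counted, so this order is a description. The S100a8 means without vesicles were 11775 ± 7926 scaled counts in Sham, 853 ± 196 in RCI and 1783 ± 911 in WBIR (SD, n = 3 each). With vesicles they were 1730 ± 574 after RCI and 2249 ± 2113 after WBIR.

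The raw S100a9 counts were 3475, 8121 and 16091 in Sham, 1764, 659 and 2257 in WBIR, and 890, 598 and 702 in RCI. They were 1503, 1930 and 1455 in WBIR+MSC-EVs and 881, 1334 and 1525 in RCI+MSC-EVs. The order of the groups was that of S100a8, with the same single overlap between WBIR+MSC-EVs and Sham. The S100a9 means without vesicles were 12862 ± 9366 scaled counts in Sham, 704 ± 226 in RCI and 1771 ± 922 in WBIR (SD, n = 3 each). With vesicles they were 1427 ± 534 after RCI and 2309 ± 2213 after WBIR.

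S100a8 fell by 2.72 ± 0.70 on the log2 scale in WBIR against Sham (edgeR adjusted p = 0.00305) and by 3.79 ± 0.73 in RCI (edgeR adjusted p = 0.000397). The log2 fold change of S100a9 was -2.86 ± 0.76 in WBIR (edgeR adjusted p = 0.00395) and -4.19 ± 0.81 in RCI (edgeR adjusted p = 0.000401). These are falls of 6.60-fold and 7.26-fold in WBIR and of 13.8-fold and 18.3-fold in RCI, for S100a8 and S100a9 respectively. In WBIR+MSC-EVs against Sham the log2 fold changes were -2.39 ± 0.69 for S100a8 (edgeR adjusted p = 0.00689) and -2.48 ± 0.75 for S100a9 (edgeR adjusted p = 0.00928), and in RCI+MSC-EVs they were -2.77 ± 0.70 (edgeR adjusted p = 0.00311) and -3.17 ± 0.77 (edgeR adjusted p = 0.0024). Without Sham replicate 2, the highest Sham sample after scaling, S100a8 and S100a9 were at -2.11 and -2.24 in WBIR, -3.18 and -3.57 in RCI, -2.16 and -2.55 in RCI+MSC-EVs, and -1.79 and -1.86 in WBIR+MSC-EVs. Without WBIR+MSC-EVs replicate 1 the last pair was at -3.51 and -3.64, and every one of these values was called.

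The weight of this pair in the transcripts counted changed accordingly. S100a8 and S100a9 together took 1.87%, 9.33% and 6.47% of the endogenous counts in the Sham samples, 1.98%, 0.531% and 1.46% in WBIR, and 0.530%, 0.523% and 0.414% in RCI. The share was 3.79%, 0.725% and 0.596% in WBIR+MSC-EVs and 0.571%, 1.08% and 1.21% in RCI+MSC-EVs. This measure needs no reference gene, and on it the lowest Sham sample overlapped WBIR replicate 1 and WBIR+MSC-EVs replicate 1 but no RCI sample, treated or untreated.

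Cxcr2 varied more within groups. Its raw counts were 89, 248 and 211 in Sham, 86, 27 and 91 in WBIR, and 31, 23 and 15 in RCI, with 60, 71 and 46 in WBIR+MSC-EVs and 33, 33 and 25 in RCI+MSC-EVs. The Cxcr2 means without vesicles were 309 ± 314 scaled counts in Sham, 23.5 ± 12.0 in RCI and 78.6 ± 46.0 in WBIR (SD, n = 3 each). With vesicles they were 33.8 ± 6.86 after RCI and 88.5 ± 91.7 after WBIR. Sham replicate 2, at 667 scaled counts, was the highest, and only the RCI groups, with or without vesicles, lay wholly below Sham. This separation too is a description, without a count over all tested genes.

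Cxcr2 fell by 3.72 ± 0.89 on the log2 scale in RCI (edgeR adjusted p = 0.00188) and by 3.17 ± 0.86 in RCI+MSC-EVs (edgeR adjusted p = 0.00495). Without Sham replicate 2 these values were -2.50 and -1.94, both called. Its fall of 1.95 ± 0.81 in WBIR (edgeR adjusted p = 0.0452) was narrowly called, and it lost the call in 13 of 23 alternative settings. Without Sham replicate 2 the WBIR value was -0.73 (edgeR adjusted p = 0.41), and with TMM scaling it was -1.11 (edgeR adjusted p = 0.179). In WBIR+MSC-EVs the Cxcr2 value of -1.90 ± 0.83 did not pass the threshold (edgeR adjusted p = 0.0548), whereas without WBIR+MSC-EVs replicate 1 it was -3.08 (edgeR adjusted p = 0.0062) and without Sham replicate 2 it was -0.70.

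In all, 4 of the 4 tested genes were called lower in WBIR, where 46.9% of all tested genes were called lower, and 3 of 4 in WBIR+MSC-EVs, where the share of all genes was 45.1%. In RCI 4 of 4 were called lower against 43% of all tested genes, and in RCI+MSC-EVs 4 of 4 against 41.3%. The median log2 fold change of the 4 genes was -2.79 in WBIR and -3.99 in RCI, beside -0.74 and -0.53 over all 426 genes. With vesicles it was -2.44 after WBIR and -3.17 after RCI, beside -0.61 and -0.45 over all genes. In WBIR and RCI without vesicles, 9 B cell markers had medians of -4.09 and -4.35 and 9 T cell markers -2.55 and -2.59. The medians of 9 monocyte and macrophage markers were 1.87 and 2.21. Falls of this size were therefore not particular to the 4 genes. TMM scaling, which centres on the bulk of the genes, moved the median of all genes in WBIR to -0.03 and turned the split of 92 genes called higher and 200 lower into 135 and 150. Under TMM the log2 fold changes in WBIR were -7.29 for Camp, -1.97 for S100a8 and -2.11 for S100a9, and those in RCI were -6.18, -3.22, -3.63 and, for Cxcr2, -3.09, all of which were called. The 4 comparisons share the Sham samples and are therefore not independent of each other.

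**Figure D2:**
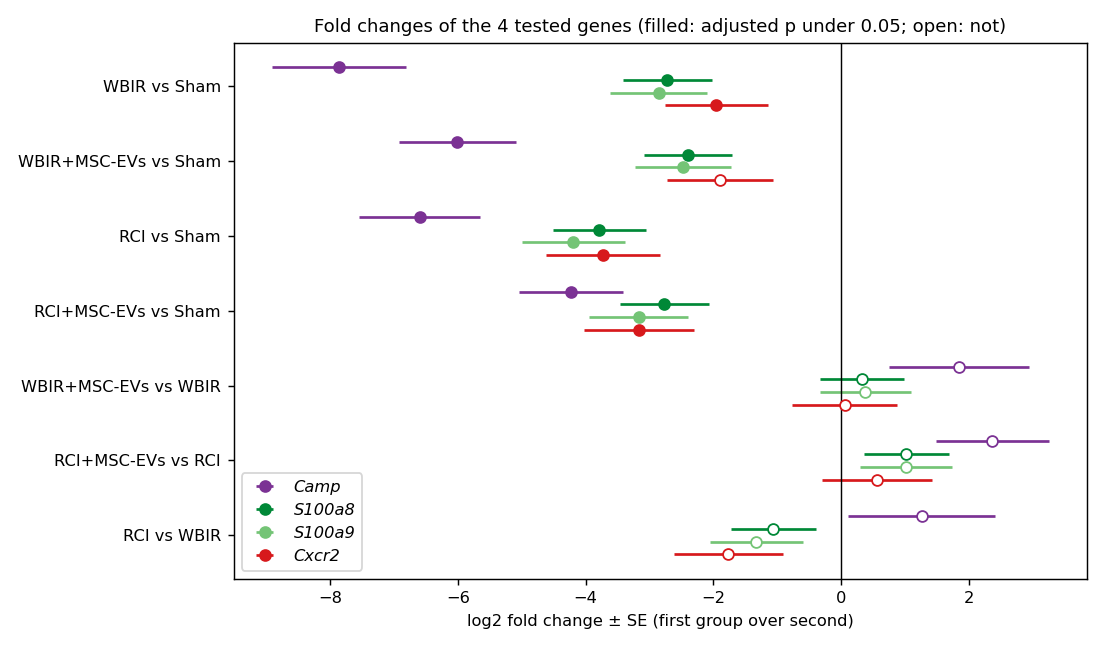
log2 fold changes (horizontal axis) of the 4 tested genes in 7 comparisons, with bars of ± 1 SE, filled points for an edgeR adjusted p under 0.05 and open points otherwise. All points against Sham lie to the left of 0 and all but Cxcr2 in WBIR+MSC-EVs are filled, whereas every point of the vesicle comparisons and of RCI against WBIR is open.

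The other 2 granule genes were counted near the floor of the assay, where the smallest value in the table was 1 and no 0 was listed. The raw Ltf counts were 11, 13 and 25 in Sham, 12, 10 and 20 in RCI, and 5, 8 and 4 in WBIR. With vesicles they were 14, 14 and 20 after RCI and 11, 12 and 10 after WBIR, so before scaling WBIR was the one group wholly below Sham. The raw Ctsg counts were 12, 2 and 33 in Sham, 8, 10 and 9 in RCI, and 3, 6 and 6 in WBIR. With vesicles they were 3, 6 and 6 after RCI and 2, 3 and 4 after WBIR. Sham replicate 2, with 2 raw Ctsg counts, was thus as low as any injured sample before scaling.

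In a fit without the filter on low counts, Ltf fell by 1.66 ± 0.65 on the log2 scale in WBIR (edgeR adjusted p = 0.0418) and was not called against Sham in WBIR+MSC-EVs, RCI or RCI+MSC-EVs, at -0.72, -0.70 and -0.20. Without WBIR+MSC-EVs replicate 1 the WBIR+MSC-EVs value of Ltf was -1.58 and was called (edgeR adjusted p = 0.0151), and without Sham replicate 2 the WBIR value was -1.26 and was not (edgeR adjusted p = 0.138). Ctsg fell by 1.51 ± 0.57 in WBIR (edgeR adjusted p = 0.0365), by 2.53 ± 0.64 in WBIR+MSC-EVs (edgeR adjusted p = 0.00328) and by 1.49 ± 0.57 in RCI+MSC-EVs (edgeR adjusted p = 0.0402), with a value of -0.89 ± 0.54 in RCI (edgeR adjusted p = 0.175). Without Sham replicate 3 the Ctsg values were -0.67 in WBIR and -0.65 in RCI+MSC-EVs, neither called, and -1.69 in WBIR+MSC-EVs, still called. The Ltf call was lost in 15 of 22 alternative settings, the Ctsg call in WBIR in 11 and that in RCI+MSC-EVs in 9. With counts under 20 raised to 20 none of these calls was left, including that of Ctsg in WBIR+MSC-EVs at -0.31 (edgeR adjusted p = 0.895). With 11 to 25 raw counts already in Sham, Ltf could not have shown a fall of the size seen for Camp.

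The ratio of S100a9 to S100a8 within a sample asks whether the calprotectin subunits moved together, and needs no scaling. It was 0.781, 1.10 and 1.19 in Sham, 1.03, 0.992 and 0.949 in WBIR, and 1.04, 0.989 and 1.02 in WBIR+MSC-EVs. With the burn it was 0.953, 0.782 and 0.710 in RCI and 0.752, 0.776 and 0.921 in RCI+MSC-EVs. The 6 irradiated samples without a burn thus lay between 0.949 and 1.04, and 5 of the 6 samples with a burn lay below all of them. The log2 ratio in RCI differed from that in WBIR by -0.29 (two-sided exact permutation test, p = 0.2) and from that in Sham by -0.32 (exact permutation p = 0.3), and the groups overlapped.

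Camp left the pair. The log2 ratio of Camp to S100a8 was -3.75 ± 1.04 in Sham, -6.65 ± 0.355 in RCI and -8.91 ± 1.22 in WBIR (SD, n = 3 each). With vesicles it was -6.07 ± 1.69 after RCI and -7.61 ± 2.20 after WBIR. Its difference from Sham was -5.16 in WBIR and -2.90 in RCI, without overlap, and -2.37 and -1.72 with counts under 20 raised to 20. It was higher in RCI than in WBIR by 2.26, again without overlap, and by 0.64 with the raised counts. The raised value comes from S100a8 alone, as every Camp count in both groups is then 20. The log2 ratio of Cxcr2 to S100a8 was -5.51 ± 0.563 in Sham, -4.55 ± 0.210 in WBIR and -5.34 ± 0.615 in RCI (SD, n = 3 each). All WBIR samples stood above all Sham and all RCI samples in this ratio, by 0.97 and 0.79 on the means. Each of these differences without overlap reached an exact permutation p of 0.1, the smallest that 3 against 3 samples allow, which became 0.35 with Benjamini-Hochberg adjustment over the 21 ratio comparisons.

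**Figure D3:**
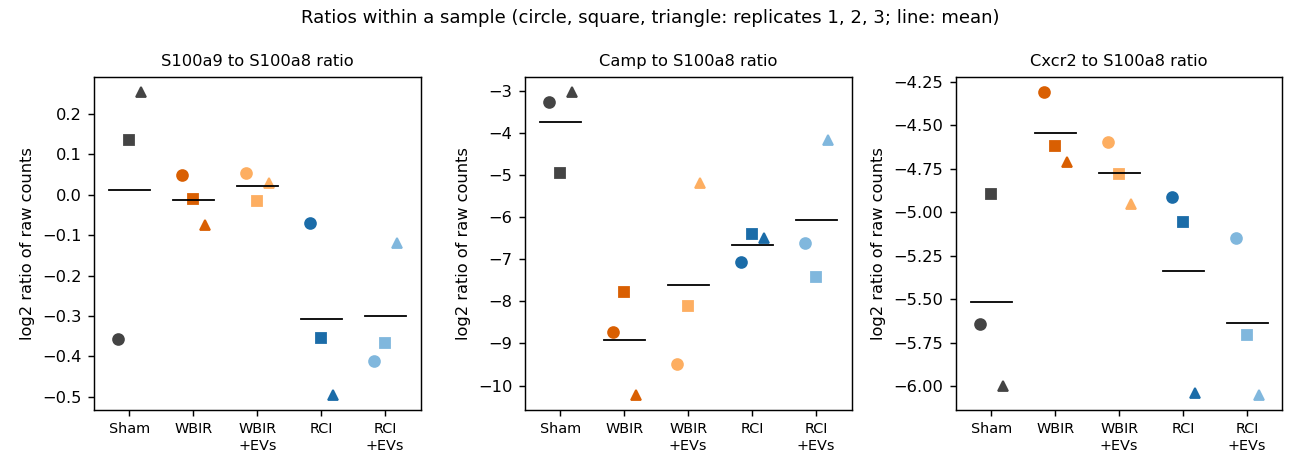
log2 ratios of raw counts within each sample (vertical axes, a different range in each panel) by group, with a circle, square and triangle for replicates 1, 2 and 3 and a line at the mean. S100a9 to S100a8 stays within 1 log2 unit in every sample, Camp to S100a8 drops from a mean of -3.75 in Sham to -8.91 in WBIR, and Cxcr2 to S100a8 has its highest mean in WBIR, whose samples overlap those of WBIR+MSC-EVs.

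Vesicle treatment was set against the untreated injury. In the WBIR comparison 0 of the 4 tested genes were called, as were 0% of all 426 genes (11 of them had an unadjusted edgeR p under 0.05), and DESeq2 and limma called none either. The log2 differences were 1.85 ± 1.09 for Camp (edgeR adjusted p = 0.997), 0.33 ± 0.66 for S100a8, 0.38 ± 0.71 for S100a9 and 0.05 ± 0.82 for Cxcr2. The Camp value was 0.48 without WBIR+MSC-EVs replicate 3, which held 39 of the 48 counts, and 0.33 with counts under 20 raised to 20. The S100a8, S100a9 and Cxcr2 values turned to -0.79, -0.78 and -1.13 without WBIR+MSC-EVs replicate 1, the sample of lowest depth.

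After RCI, 0 of the 4 genes and 0% of all 426 were called between vesicle-treated and untreated samples (14 had an unadjusted edgeR p under 0.05), and DESeq2 and limma called none. Camp, S100a8 and S100a9 had the 3 highest log2 differences of all 426 genes, at 2.37 ± 0.88, 1.02 ± 0.66 and 1.02 ± 0.72, and Cxcr2 was 23rd at 0.56 ± 0.87. These ranks are a description only. The study had already named S100a8 and S100a9 as improved by vesicles after RCI in these same samples. Camp passed the filter on mean counts only through its Sham samples. Camp had an unadjusted edgeR p of 0.0176 and an adjusted p of 0.939, and S100a8 an adjusted p of 0.989. All 3 treated S100a8 values, from 1081 to 2172 scaled counts, lay above the untreated range of 633 to 1007, whereas the groups overlapped for Camp, S100a9 and Cxcr2. The share of all 426 genes that separate in this way was not counted, so the S100a8 separation is a description only. The Camp value rested on RCI+MSC-EVs replicate 3, with 108 scaled counts against 11.1 and 12.6 in the other replicates, and was 0.49 without it.

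Averaged over the injuries, the vesicle difference was 2.11 ± 0.70 for Camp (edgeR adjusted p = 0.739), 0.67 ± 0.47 for S100a8, 0.70 ± 0.51 for S100a9 and 0.30 ± 0.60 for Cxcr2, and 0% of the 426 genes were called, with 14 at an unadjusted p under 0.05. The vesicle difference in RCI minus that in WBIR was 0.52 ± 1.54 for Camp, 0.69 ± 0.93 for S100a8, 0.64 ± 1.01 for S100a9 and 0.51 ± 1.19 for Cxcr2, and again 0% of the genes were called, with 11 at an unadjusted p under 0.05. DESeq2 and limma called no gene in either. Without WBIR+MSC-EVs replicate 1 the averaged values of S100a8 and S100a9 were 0.12 and 0.12, and that of Cxcr2 was -0.28. The averaged Camp value was 1.17 without RCI+MSC-EVs replicate 3, and its interaction value turned to -1.35. Differences of the size seen here did not pass the test with 3 samples a group, which does not show that they were absent.

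Adding the burn was examined as RCI against WBIR, where 0 of the 4 genes were called beside 0.704% of all tested genes, 3 of 426 (71 had an unadjusted edgeR p under 0.05). By the study's text RCI mice also had anaesthesia, morphine and resuscitation fluid, which it does not describe for WBIR mice. The part of these cannot be told apart from that of the burn. The study describes its Sham procedure under the combined injury, so a like limit may hold for WBIR against Sham. Cxcr2 had the lowest log2 difference of all 426 genes at -1.77 ± 0.85 (edgeR adjusted p = 0.318). S100a8 differed by -1.06 ± 0.66 (edgeR adjusted p = 0.409) and S100a9 by -1.33 ± 0.73 (edgeR adjusted p = 0.364), beside a median of 0.20 over all genes. Camp went the other way at 1.26 ± 1.14 (edgeR adjusted p = 0.623), with raw counts of 7 to 11 in RCI above the 2 to 4 of WBIR. With counts under 20 raised to 20 every Camp count in these groups becomes 20, so the value of -0.25 reflects the scaling alone. DESeq2 and limma called none of the 4.

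Depth moved with some of these values. In 5 of 5 groups the sample with the smallest reference level had the group's highest scaled S100a8 count, and this held in 4 of 5 groups for Cxcr2, 3 of 5 for S100a9, Ltf and Ctsg, and 2 of 5 for Camp. With TMM scaling it held in 4 of 5 groups for S100a8. The reference-scaled counts are divided by the reference level itself, so a low level raises them by construction. Sham replicate 2 and WBIR+MSC-EVs replicate 1 had the lowest reference levels, at 367 and 306 counts, against a highest of 1636. The part of depth in the spread within groups was not tested.

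**Figure D4:**
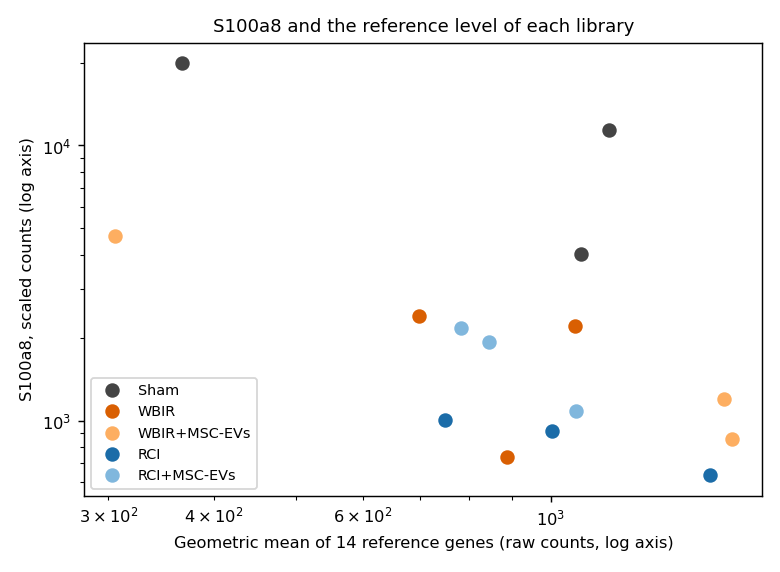
Scaled S100a8 counts against the geometric mean of the 14 reference genes in each of the 15 samples (both axes logarithmic), coloured by group. In each group the leftmost sample is the highest, such as Sham at 19889 and WBIR+MSC-EVs at 4681 scaled counts. The level on the horizontal axis also divides the counts on the vertical axis.

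Other genes used by neutrophils were counted as well. Of 15 tested surface, adhesion and oxidase genes, 7 were lower, 3 higher and 5 not called in WBIR against Sham, and 6, 2 and 7 in RCI, close to the 46.9% and 43% of all tested genes that were called lower. Their median log2 fold change was -1.43 in WBIR and -0.95 in RCI, beside -0.74 and -0.53 over all tested genes. With TMM scaling 5 were lower and 4 higher in WBIR and 5 lower and 5 higher in RCI, with medians of -0.52 and -0.25. Among the called genes in WBIR were Ceacam1, a cell adhesion receptor, at -2.97 (edgeR adjusted p = 8.9e-05), and Ncf4, an oxidase subunit, at -2.70 (edgeR adjusted p = 4.9e-07). In RCI they were at -2.05 and -2.45. Ncf4 is also expressed by lymphocytes, and 9 of 9 tested T cell and 9 of 9 tested B cell markers were called lower in both injuries. Csf3r, the receptor for the granulocyte growth factor G-CSF and a defining neutrophil marker, did not pass at -1.43 ± 0.69 in WBIR (edgeR adjusted p = 0.0779) and -1.38 ± 0.69 in RCI (edgeR adjusted p = 0.0877). The Fc receptor genes Fcgr3 and Fcgr4, which macrophages share, rose by 2.53 and 2.20 in WBIR. Csf3r, Fcgr3 and Fcgr4 were named after their values were seen. Of 16 further granule genes listed, such as Mpo, Elane and Lcn2, none was among the 561 genes counted.

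Among regulators of granulocyte production, 5 genes were tested. Gfi1, a repressor needed for neutrophil differentiation, fell by 3.00 in WBIR (edgeR adjusted p = 6.8e-05) and by 2.23 in RCI (edgeR adjusted p = 0.000442). Cebpb, a C/EBP factor of emergency granulopoiesis, rose by 1.74 in WBIR (edgeR adjusted p = 6.1e-06) and by 1.79 in RCI, and Runx1, a factor of blood cell development, fell by 0.53 (edgeR adjusted p = 0.0321) and 0.48. In all 1 rose and 2 fell in WBIR, and 2 rose and 2 fell in RCI. With TMM scaling Runx1 was at 0.08 in WBIR and -0.04 in RCI and was no longer called, whereas Gfi1 and Cebpb kept their calls. The part of other cell types in the values of these regulators was not tested.

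Receptor and signalling genes for S100a8 and S100a9, and ligands of Cxcr2, were also on the panel. Of 5 tested receptor and signalling genes, 3 rose and none fell in WBIR, where 21.6% of all tested genes were called higher, and 4 rose and none fell in RCI, where 26.5% were. Tlr4, the innate receptor that binds calprotectin, rose by 2.10 in WBIR (edgeR adjusted p = 0.000546) and by 2.10 in RCI, its co-receptor Ly96 by 1.97 (edgeR adjusted p = 4.0e-05) and 2.29, and the adaptor Myd88 by 0.85 (edgeR adjusted p = 0.000764) and 1.39. Of the chemokines that bind Cxcr2, 4 were counted and 1 passed the filter. This was Ppbp, which platelets store, and it rose by 2.20 in WBIR (edgeR adjusted p = 0.00115) and by 2.31 in RCI. The part of platelets in this rise was not tested. Cxcl1 had raw counts of 3 to 7 in Sham, 1 to 7 in WBIR and 9 to 74 in RCI, too few to be tested.

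Markers of other cells moved too. Of 9 tested monocyte and macrophage markers, 7 rose and none fell in WBIR, and 7 rose and 1 fell in RCI, led in WBIR by the Fc receptor gene Fcgr1 at 3.90 (edgeR adjusted p = 1.5e-05), by Emr1, which encodes F4/80, at 3.67, and by the scavenger receptor gene Marco at 3.50. Their summed level was 2295 to 3185 scaled counts in Sham, 11550 to 19690 in WBIR and 17420 to 39601 in RCI. Ccr2, a chemokine receptor of inflammatory monocytes and the marker that fell in RCI, was at -0.60 in WBIR (edgeR adjusted p = 0.253) and -1.35 in RCI (edgeR adjusted p = 0.0181), and it was named after its values were seen. S100a8 and S100a9 are also expressed by monocytes, and the part of monocytes in their values was not tested. Of 5 tested NK markers, 1 rose and 1 fell in WBIR, and 1 rose and 3 fell in RCI, with sums of 1316 to 4497 scaled counts in Sham, 825 to 1709 in WBIR and 423 to 674 in RCI. The NK median in WBIR turned from -0.39 to 0.36 with TMM scaling, while the median of the macrophage markers was above 0 and those of the T and B cell markers below 0 under each of the 4 scalings. The 1 tested gene of eosinophils, basophils and mast cells, Ccr3, rose by 3.99 in WBIR and 3.77 in RCI. The part of these shifts in cell make-up in the values of the 6 genes, and of the other neutrophil and regulator genes above, was not tested. In the vesicle comparisons no gene of any list was called.

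**Figure D5:**
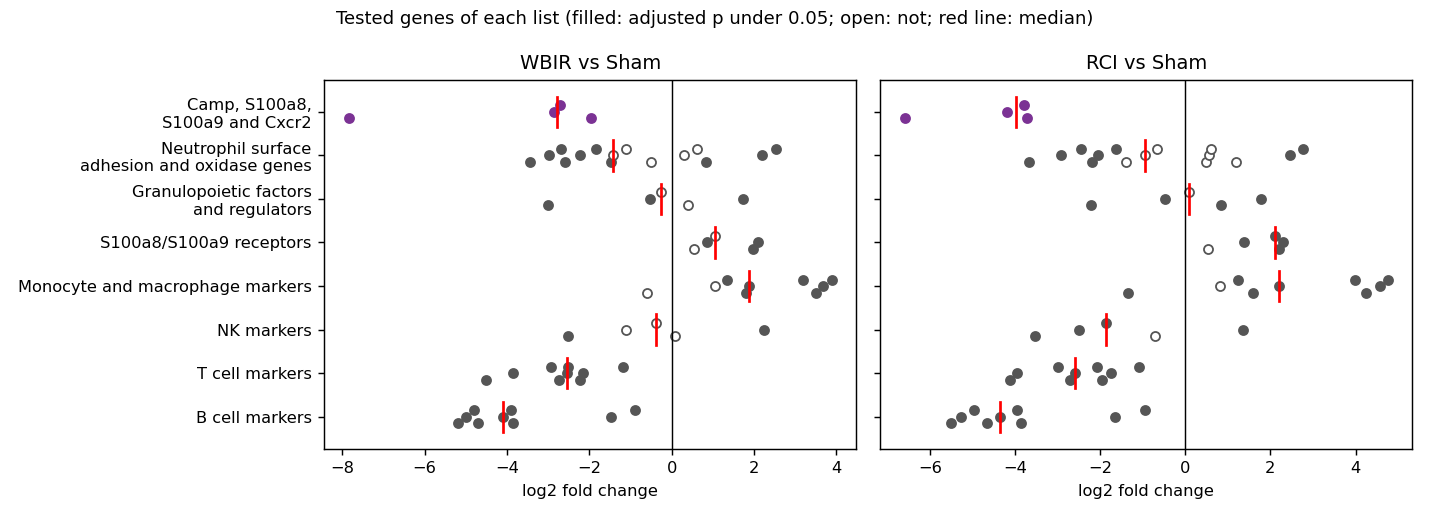
log2 fold changes (horizontal axes) of Camp, S100a8, S100a9 and Cxcr2 and of the tested genes of 7 companion lists in WBIR and in RCI against Sham, 1 point per gene, filled for an edgeR adjusted p under 0.05, with a red line at the median. The first row lies at a median of -2.79 in WBIR and -3.99 in RCI, and the medians of the receptor and macrophage rows lie to the right of 0, with 1 macrophage gene to the left of it in each panel. The median of the B cell row lies further left than that of the first row, at -4.09 in WBIR and -4.35 in RCI.

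Likeness between genes was measured as the root mean square difference of their centred log2 profiles over the 15 samples. S100a8 and S100a9 differed by 0.22, Cxcr2 differed from S100a8 by 0.55 and from S100a9 by 0.51, and Camp differed from the other 3 by 1.95 to 2.37. The genes outside the set most like S100a8 were H2-Q10, an MHC class I gene, at 0.40, the NK receptor gene Klrd1 at 0.51 and the interleukin-18 receptor gene Il18rap at 0.63. The same 3 came first for S100a9, at 0.47, 0.55 and 0.71, and for Cxcr2 the nearest were H2-Q10 at 0.52, Klrd1 at 0.56 and Eomes at 0.57. For Camp the nearest were Btla at 1.10, H2-Ob at 1.22 and Cxcr4 at 1.23. All profiles share the samples' scaling and depth, so these distances are a description.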

How the data were processed

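The authors lysed red blood cells of the spleens, purified RNA, hybridised it to probe pairs and counted the barcodes on the nCounter, using nSolver for normalisation and fold changes and Ingenuity software for pathways. The deposited values are raw counts per gene, with no row for control probes used here, so background was not subtracted. Their normalisation settings are not given in the sources used here.

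The 426 of 547 endogenous genes whose mean count reached 20 were tested with edgeR 4.0.16 in R 4.3.3 (quasi-likelihood, robust) on raw counts with the reference level as offset, all 15 samples and 1 coefficient per group. The fit without filter gave the values of Ltf and Ctsg. The two-sided p-values took a Benjamini-Hochberg adjustment over all genes within each of 9 comparisons, calls needed an adjusted p below 0.05, and SE is the absolute log2 fold change over the square root of F. Replicates varied by 33.1% beyond counting error (common dispersion 0.110). Scripts were tested on simulated data. Ratios of raw counts were compared by exact permutation.

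The alternatives were TMM and median-of-ratios scaling, the 7 least varying reference genes, DESeq2 1.42.0, limma 3.58.1 on log2(scaled count + 10), no filter, counts raised to 20, the replicate number as a block, and leaving out each sample. The ratios of Camp and Cxcr2 to S100a8 were added after seeing the data. The comparison of the S100a9 to S100a8 ratio between RCI and WBIR was not planned either. Members and companion lists were chosen with earlier results of these data known, and Camp, S100a8 and S100a9 are among the genes the study named on these samples. From each list the up to 3 called genes with the largest change in WBIR were named, except 1 that is not reported here, and for likeness the 3 nearest genes.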

Additional observations from a re-analysis of the deposited data

How the results depend on the processing

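Over 23 alternative settings (22 for Ltf and Ctsg), Camp, S100a8 and S100a9 kept their direction and their calls against Sham in all 4 injured groups, as did Cxcr2 in both RCI groups. The Camp value in WBIR ran from -8.26 to -5.16 and that in RCI from -6.92 to -5.31. The number of tested genes called against Sham was 3 or 4 of 4 in every setting, and 0 in every setting of the vesicle comparisons and of RCI against WBIR. Of the single-gene values, 1149 kept direction and call, 49 lost a call, 5 gained one and 21 changed sign, none of them called. The cause was not tested.

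With counts under 20 raised to 20, the sign changed for Ctsg in WBIR+MSC-EVs against WBIR (0.17), in RCI+MSC-EVs against RCI (0.21) and in the vesicle average (0.19), for Camp (-0.25), Ltf (-0.24) and Ctsg (-0.24) in RCI against WBIR, for Ltf in the difference of vesicle effects (0.035), and for the Camp to S100a8 ratio in RCI+MSC-EVs against RCI (-0.013). Apart from that ratio, every sample compared then held 20 counts for the gene, so these values reflect the scaling alone. Cxcr2 in WBIR+MSC-EVs against WBIR became -0.067 with TMM, -0.072 with median-of-ratios scaling, -0.086 with limma and -0.17 with the replicate block, and Ctsg in the difference of vesicle effects -0.055 with limma. Leaving out 1 sample at a time gave ranges across 0 in WBIR+MSC-EVs against WBIR for S100a8 (-0.79 to 0.72), S100a9 (-0.78 to 0.77) and Cxcr2 (-1.13 to 0.53), in RCI+MSC-EVs against Sham for Ltf (-0.59 to 0.19), in the vesicle average for Cxcr2 (-0.28 to 0.54), and in the difference of vesicle effects for Camp (-1.35 to 1.88) and Ltf (-0.92 to 0.44). So did the log2 ratios of S100a9 to S100a8 in WBIR (-0.21 to 0.10) and WBIR+MSC-EVs (-0.17 to 0.13) against Sham and in RCI+MSC-EVs against RCI (-0.087 to 0.13), of Camp to S100a8 in the last (-0.36 to 1.26), and of Cxcr2 to S100a8 in RCI (-0.066 to 0.53) and RCI+MSC-EVs (-0.36 to 0.19) against Sham.

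The number of all genes called between RCI and WBIR was 3, and 1 with TMM, 1 with median-of-ratios scaling, 31 with DESeq2, 15 without RCI replicate 1, 7 without Sham replicate 2, 8 without WBIR replicate 1 and 1 without WBIR replicate 3. Median-of-ratios scaling gave 136 genes higher and 152 lower in WBIR. Same-numbered samples gave correlations from -0.494 to 0.676 (30 pairs, 11 over 0.1). Their median was 0.0072, beside 0.021 for samples with different numbers. With 3 samples a group this cannot exclude a pairing, and the main fit used none. With the replicate block the WBIR values were -1.87 for Cxcr2 (edgeR adjusted p = 0.0644), -1.68 for Ltf (0.0564) and -1.49 for Ctsg (0.0521), and Ctsg in RCI+MSC-EVs was -1.46 (0.0564), all no longer called, and the block changed no other call. Counts mostly below 20 after injury limit the values of Ltf, Ctsg and Camp, and 3 samples per group limit the rest.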
